A study of Mus musculus with 12 samples.

Results

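Rgs1, Rgs2, Rgs10, Rgs14, Rgs18 and Rgs19 encode regulators of G protein signaling (RGS proteins), and the 6 genes were taken by gene symbol from a table of read counts on 37991 mouse genes, in all 12 samples. Resting B cells had been purified from the spleens of 8-week-old mice by removal of non-B cells and of activated B cells that carry CD43. RNA was sequenced from cells at rest (0 h) and after 3 h with an antibody against IgM, which engages the B cell receptor (BCR), together with the cytokine IL-4. Runx1 c-k/o mice (labelled Runx1-KO) carried a Runx1 allele whose exon 4 is flanked by LoxP sites and the CD23-iCre transgene, which is first active at the transitional stage of B cells, while Cre-only mice (labelled CD23-iCre) carried the transgene alone, so that both genotypes expressed Cre. Each of the 4 groups, which were the 2 genotypes at rest and at 3 h, had 3 replicates, which the authors describe as biological. Since the labels do not tie a replicate to a mouse, p-values measure the spread between these samples. All 6 members had enough counts to be tested, among 13538 genes tested in all.

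A heterotrimeric G protein is switched on when its receptor makes the alpha subunit take up GTP, and it stays on until that GTP is hydrolyzed. RGS proteins bind the active alpha subunit through a conserved RGS domain and speed up the hydrolysis, which shortens the signal of the receptor. In B cells the receptors for chemokines, sphingosine 1-phosphate and oxysterols, which position the cells in lymphoid tissue, signal mostly through the Gi class of alpha subunits, and RGS proteins set how long they signal.

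Of the 6 members, Rgs2, Rgs1 and Rgs18 are close neighbors. Rgs2 (ENSMUSG00000026360, chr1:145846468-145851291), Rgs1 (ENSMUSG00000026358, chr1:146091102-146096372) and Rgs18 (ENSMUSG00000026357, chr1:146599813-146622565) lie on the minus strand of mouse build mm9 (NCBIM37) in a stretch of 776.1 kb that also holds Rgs13 and Rgs21 and no other protein-coding gene. Rgs19 (ENSMUSG00000002458, chr2:181423124-181428682, minus strand), Rgs10 (ENSMUSG00000030844, chr7:135517135-135562272, minus strand) and Rgs14 (ENSMUSG00000052087, chr13:55471093-55486048, plus strand) lie elsewhere. Rgs10 shares its strand with the overlapping transcript Gm15503, which held between 0 and 5 counts in any sample.

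The start site regions of Rgs2, Rgs19 and Rgs13 are shown because they belong to the most highly expressed member at rest, to the member that did not fall on activation, and to the neighboring RGS gene that was lower in Runx1 c-k/o cells at both times. The windows come from RefSeq (GRCm38.p6), run from 250 bases before to 50 bases after the start, and were placed on NCBIM37 by an exact match at chr1:145851230-145851529, chr2:181428633-181428932 and chr1:146024453-146024752, all on the minus strand. Capitals mark the RUNX core letters TGTGGT or TGCGGT and the letters TGACG of the cAMP response element, on either strand. Of the members, 3 were found in the RefSeq table, with 5 windows.
Rgs2: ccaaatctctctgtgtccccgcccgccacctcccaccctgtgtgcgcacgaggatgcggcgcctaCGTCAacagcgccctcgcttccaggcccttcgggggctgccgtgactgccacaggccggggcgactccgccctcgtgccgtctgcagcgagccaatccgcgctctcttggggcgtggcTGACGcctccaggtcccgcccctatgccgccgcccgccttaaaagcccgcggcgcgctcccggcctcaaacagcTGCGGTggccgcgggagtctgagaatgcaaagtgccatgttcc
Rgs19: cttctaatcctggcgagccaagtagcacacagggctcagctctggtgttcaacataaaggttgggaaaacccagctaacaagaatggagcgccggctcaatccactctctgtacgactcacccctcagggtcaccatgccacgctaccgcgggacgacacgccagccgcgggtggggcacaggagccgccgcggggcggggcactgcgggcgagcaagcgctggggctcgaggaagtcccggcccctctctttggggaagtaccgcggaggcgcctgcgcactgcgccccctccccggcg
Rgs13: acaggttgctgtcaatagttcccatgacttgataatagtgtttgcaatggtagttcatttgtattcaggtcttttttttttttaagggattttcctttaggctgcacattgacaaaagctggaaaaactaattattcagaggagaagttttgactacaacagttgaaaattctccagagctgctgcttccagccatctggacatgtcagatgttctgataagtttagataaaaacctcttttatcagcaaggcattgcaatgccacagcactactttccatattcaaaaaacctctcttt
The Rgs2 window had 70% G and C and 33 CpG dinucleotides, and the Rgs19 window had 66.7% and 27. The Rgs13 window had 36.7% and 0 CpG dinucleotides, against medians of 52.7% and 7 over 32851 windows of the table. The RUNX core TGCGGT began 7 bases after the start of Rgs2, and this motif was found in 6.45% of all windows. TGACG was found 67 and 185 bases before the start of Rgs2 and in 20.8% of all windows. The other RUNX core, TGTGGT, occurred in 16.8% of all windows and in none of these 3. A search for the GC box GGGCGG, present in 35.7% of all windows, found 4 matches in the Rgs2 window, 1 in the Rgs19 window and 0 in the Rgs13 window. The TATA box TATAAA (13.6% of all windows) and the E box CACGTG (7.15%) had no match in these 3 windows. Another Rgs19 window, at chr2:181428466-181428765, had CACGTG and 2 GC boxes, and the window at chr2:181426473-181426772 had none of the motifs. The Rgs10 window (chr7:135561637-135561936, minus strand) had 76% G and C, 34 CpG dinucleotides and 2 GC boxes. Both strands were searched, CACGTG reads the same on both, and matches describe letters and not bound sites. Rgs1, Rgs14 and Rgs18 were not in the table.

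The samples held 14442251 to 23641552 counted reads. Levels are given as normalized CPM, a gene's reads scaled to the normalized total of its sample. The smallest level that 3 counts could show was between 0.127 and 0.208 CPM. Read counts of Runx1 cover all of its exons, so the deletion of exon 4 could not be checked. The authors report from western blots that RUNX1 protein was missing from mature resting B cells of these mice. Runx1 levels were 81.8 to 86.7 CPM in resting Cre-only and 95.7 to 103 CPM in resting Runx1 c-k/o samples. At 3 h they were 34.9 to 38.5 and 47.3 to 74.5 CPM, higher in Runx1 c-k/o cells (log2 fold change 0.80, adjusted p = 0.00769 in edgeR's quasi-likelihood test). Replicate 2 of resting Runx1 c-k/o cells and replicate 1 of 3-h Runx1 c-k/o cells stood apart from the other replicates of their groups, with chi-square per degree of freedom of 30.6 or more and 60.6 or more in their pairs, whereas pairs within the Cre-only groups gave 3.31 to 5.95. Results that rest on these libraries are therefore also given without them.

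At rest, Rgs2 was the most abundant of the 6 transcripts. Rgs2 acts mainly on the Gq class of alpha subunits. Scaled by the length of its exons, it stood at 228, 202 and 199 CPM per kb in resting Cre-only cells and ranked 215th of 13514 genes. Rgs1, known in B cells as a brake on chemokine receptors, followed at 60.1 ± 2.54 CPM per kb (SD, n = 3). Rgs19, which acts on Gi class subunits, stood at 34.9 ± 1.53 CPM per kb and Rgs14, which also carries a domain that holds inactive Gi subunits, at 32.9 ± 0.582. Rgs10, a small RGS protein also found in microglia and macrophages, at 5.30 ± 1.16 and Rgs18, best known from platelets, at 4.27 ± 0.243 CPM per kb were the lowest. The 3 samples of each gene lay apart from those of its neighbors in this order, but Rgs19 exceeded Rgs14 by only 1.06-fold.

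Resting cells of the Runx1 c-k/o showed an order that was the same by mean level, and Rgs2 ranked 344th of 13514 genes. Rgs2 averaged 137 ± 11.8 CPM per kb, Rgs1 41.9 ± 11.7, Rgs19 36.5 ± 3.86, Rgs14 28.4 ± 2.02, Rgs10 8.63 ± 3.11 and Rgs18 3.56 ± 0.480. Here the samples of Rgs1 overlapped those of Rgs19, since replicate 1 had only 28.5 CPM per kb of Rgs1 against 50.1 and 47.1 in the others.

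**Figure D1:**
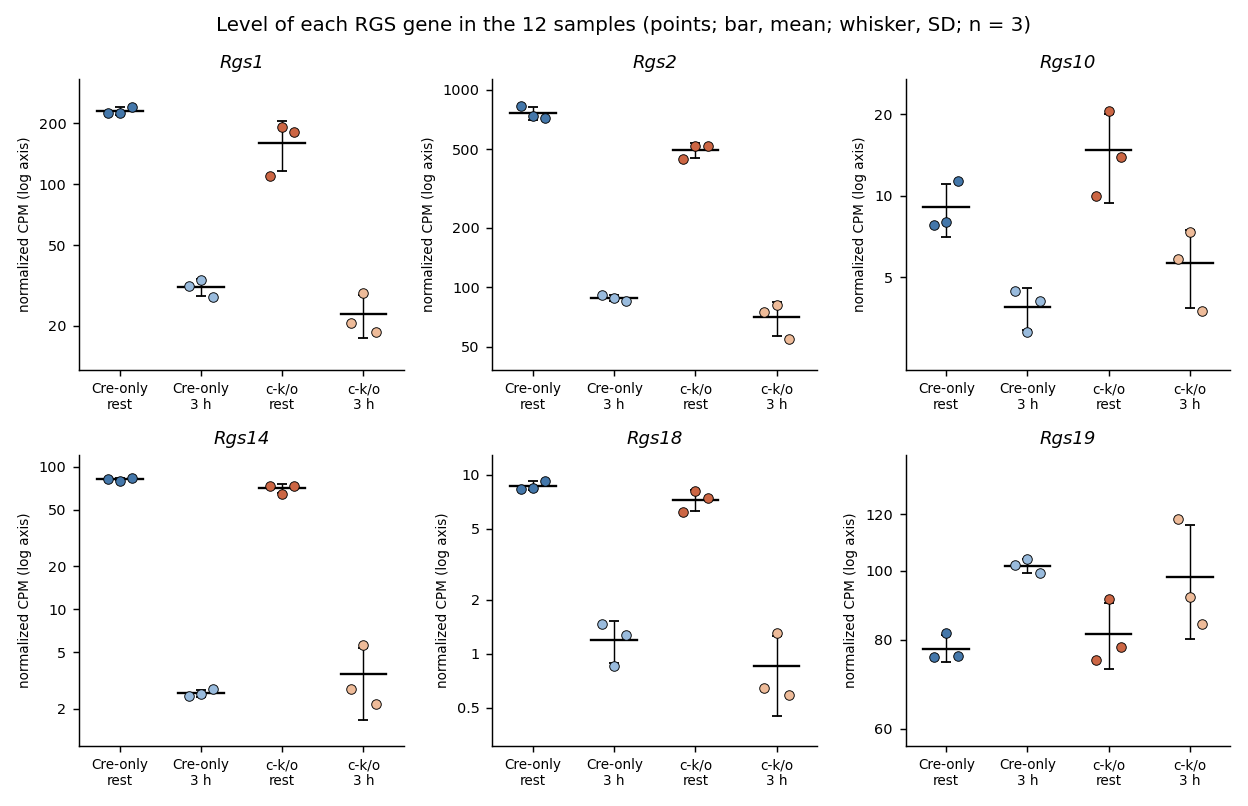
Normalized CPM (log axis) of the 6 RGS genes in each of the 12 samples, by group (points, samples; bars, means; whiskers, SD of 3 replicates). Rgs1, Rgs2, Rgs10, Rgs14 and Rgs18 are lower at 3 h than at rest in both genotypes without overlap, while Rgs19 moves from 75.6 to 81.7 up to 99.3 to 104 CPM in Cre-only cells.

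The comparison of 3-h with resting cells asked how the RGS genes respond to activation. Anti-IgM, IL-4 and the time in culture cannot be told apart here, since none of the 4 groups was kept for 3 h without stimulation. Within 3 h, 5 of the 6 members fell in Cre-only cells and 1, Rgs19, rose. All 6 passed the threshold, which was an adjusted p of 0.05 in edgeR's quasi-likelihood test (Benjamini-Hochberg values, computed across every tested gene). Of all tested genes, 75% passed it, 36.4% as lower and 38.6% as higher, so that a call in either direction was common at 3 h. The median log2 fold change was -2.86 over the members and 0.03 over all tested genes. Levels are relative to all mRNA of a sample, and in bulk RNA a smaller number of cells of a type and less RNA in each cell cannot be told apart.

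Rgs14 fell by the largest factor among the members. It had 82.3, 80.3 and 83.1 CPM in resting Cre-only cells and 2.46, 2.55 and 2.74 CPM at 3 h. The groups were far apart, and the difference was 31.7-fold (log2 fold change -4.99, SE 0.247, adjusted p = 1.59e-08 in edgeR's quasi-likelihood test). Only 136 of the 13538 tested genes had a lower log2 fold change. Runx1 c-k/o cells had Rgs14 levels of 73.8, 65.0 and 73.7 CPM at rest and 2.77, 5.64 and 2.18 CPM at 3 h, with replicate 2 the highest at 3 h. This was a 20.2-fold difference (log2 fold change -4.33, SE 0.239, adjusted p = 3.65e-08 in the same test).

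Rgs2 had 828, 734 and 722 CPM at rest in Cre-only cells and 90.8, 88.5 and 85.2 CPM at 3 h. No sample at 3 h came near a resting one, and the level was 8.63-fold lower (log2 fold change -3.11, SE 0.144, adjusted p = 1.20e-08 by edgeR). Runx1 c-k/o cells showed a fall of Rgs2 from 446, 517 and 523 CPM to 74.9, 81.3 and 54.7 CPM, a 7.05-fold difference (log2 fold change -2.82, SE 0.143).

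Rgs1, which is separated from Rgs2 by Rgs13, fell by a similar factor. Its level was 224, 225 and 242 CPM in resting and 31.6, 33.7 and 27.9 CPM in 3-h Cre-only cells, 7.41-fold lower (log2 fold change -2.89, SE 0.211, adjusted p = 1.40e-07 by edgeR). Its Runx1 c-k/o levels were 109, 192 and 180 CPM at rest and 20.8, 29.0 and 18.7 CPM at 3 h, 7.03-fold lower, again with no overlap of the groups.

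Rgs18, at the far end of the cluster, was scarce. Its counts were 173, 148 and 149 in resting Cre-only samples and 34, 13 and 20 at 3 h, or 8.34, 8.43 and 9.24 against 1.47, 0.849 and 1.27 CPM. The groups did not overlap, and the level at 3 h was 7.06-fold lower (log2 fold change -2.82, SE 0.245, adjusted p = 5.56e-07 by edgeR). Runx1 c-k/o samples had 6.21, 8.14 and 7.37 CPM at rest and 0.644, 1.31 and 0.589 CPM at 3 h, 8.54-fold lower. The 10 markers of megakaryocytes and platelets, in which Rgs18 is also expressed, summed to 18.3 to 20.0 CPM in resting and 4.05 to 4.33 CPM in 3-h Cre-only samples, and the Runx1 c-k/o sums were 15.3 to 21.9 and 4.30 to 6.30 CPM. Of these markers 7 passed the filter on low counts and Itga2b was the most abundant at 6.88 CPM in resting Cre-only cells. No marker of the list was at 0 in all samples, and their part in the fall of Rgs18 was not tested.

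Rgs10 fell least of the 5. It stood at 7.81, 8.03 and 11.3 CPM in resting Cre-only cells and at 4.45, 3.14 and 4.08 CPM at 3 h. All 3-h samples were below all resting ones, by 2.30-fold on average (log2 fold change -1.20, SE 0.299, adjusted p = 0.00284 by edgeR). The Runx1 c-k/o level went from 9.96, 20.5 and 13.9 CPM to 5.86, 7.35 and 3.77 CPM, 2.61-fold lower. Summed levels of 8 myeloid markers were also lower at 3 h, with 292, 247 and 300.5 CPM at rest and 25.4, 17.6 and 21.5 CPM at 3 h in Cre-only cells. The Runx1 c-k/o sums were 213, 417 and 336 CPM at rest and 21.1, 46.5 and 19.2 CPM at 3 h, so that replicate 2 of both Runx1 c-k/o groups had the highest sum and the highest Rgs10. Of the 8 markers 7 passed the filter, with Csf1r, the receptor of macrophage colony-stimulating factor, the most abundant at 185 CPM in resting Cre-only cells and Ly6g, a neutrophil marker, at or near 0 in every group. The part of myeloid RNA in the Rgs10 values was not tested.

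Rgs19 behaved differently. Its level was 75.6, 81.7 and 75.9 CPM in resting and 102, 104 and 99.3 CPM in 3-h Cre-only cells. All 3-h samples were higher, by 1.31-fold (log2 fold change 0.39, SE 0.120, adjusted p = 0.0107 by edgeR), although the sign turned once the fit held an RUVs factor, an estimate of unwanted variation (log2 fold change -0.05 in edgeR and -0.16 in DESeq2) and the adjusted p was 0.0860 among genes with at least 10 counts in every sample. Runx1 c-k/o samples of Rgs19 had 74.9, 91.1 and 78.1 CPM at rest and 118, 91.8 and 84.2 CPM at 3 h. Here the groups overlapped, and the log2 fold change of 0.27 (SE 0.120) had an adjusted p of 0.0580 in edgeR's test. This value passed the threshold when resting replicate 2 (adjusted p = 0.0184), 3-h replicate 2 (0.0478) or 3-h replicate 3 (0.0130) was left out of edgeR's fit, and without both libraries that stood apart (0.0285). It failed in the other alternatives, and its sign turned with an RUVs factor (log2 fold change -0.19 in edgeR and -0.26 in DESeq2).

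On activation of Runx1 c-k/o cells 5 of the 6 members were called lower and 0 higher, where 74.3% of all tested genes were called, 36.6% as lower and 37.7% as higher. The samples of these 5 did not overlap between times in either genotype, and of all tested genes 40.6% (Cre-only) and 36.3% (Runx1 c-k/o) were lower in this way. The 5 that fell passed in every alternative fit that was run in both genotypes. Both genotypes' changes on activation are drawn side by side in the plot of log2 fold changes at 3 h. For each member the genotype difference in the change was tested as an interaction. None passed edgeR's test (adjusted p = 0.999 for all 6 members, with 0 under 0.05 before adjustment and 0 called by DESeq2), and 0.0813% of all tested genes did. The difference for Rgs14 was a log2 value of 0.65 (SE 0.334), but it was 0.15 without 3-h Runx1 c-k/o replicate 2 and 0.91 without replicate 3.

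**Figure D2:**
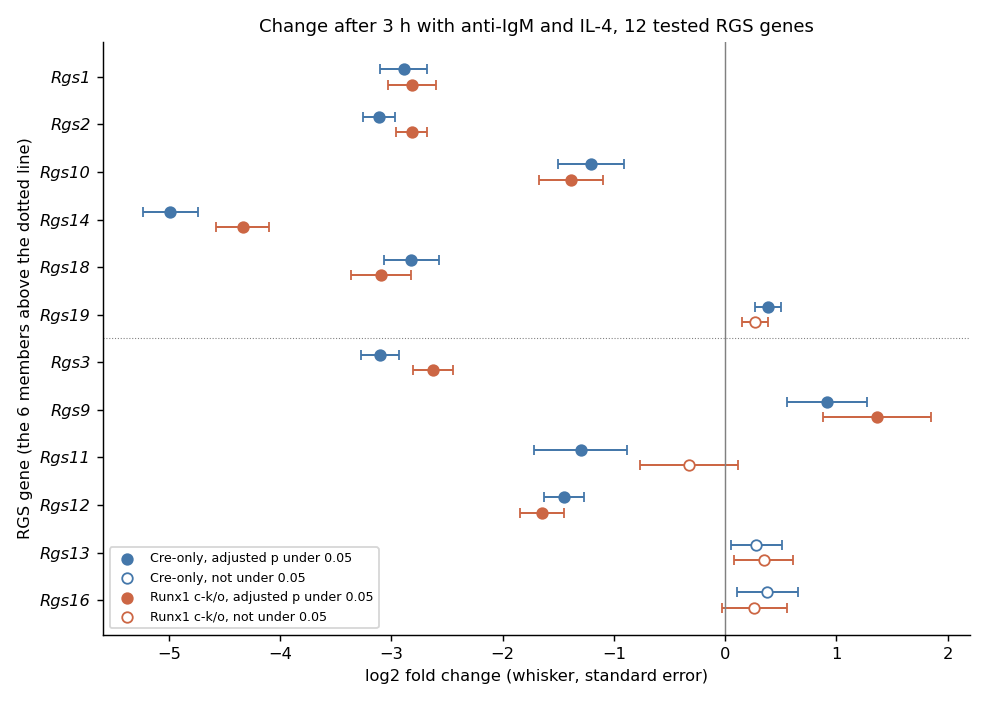
Log2 fold change of 3-h against resting cells for the 12 tested RGS genes, in Cre-only (blue) and Runx1 c-k/o (orange) cells, with standard errors as whiskers and filled points for an adjusted p under 0.05 in edgeR's quasi-likelihood test. The members run from -4.99 (Rgs14) to 0.39 (Rgs19) in Cre-only cells.

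The falls reordered the family. At 3 h Rgs19 was the most abundant member per length, with 45.7, 46.6 and 44.5 CPM per kb in Cre-only cells. The Runx1 c-k/o samples had 53.0, 41.2 and 37.8 CPM per kb of it. Rgs2 followed with 24.3 ± 0.786 CPM per kb in Cre-only cells, then Rgs1 with 8.11 ± 0.767, Rgs10 with 2.27 ± 0.395, Rgs14 with 1.04 ± 0.0573 and Rgs18 with 0.589 ± 0.156 (SD, n = 3). In Cre-only cells all neighbors in this order were apart. The order was the same in Runx1 c-k/o cells, but the samples of Rgs10 (3.31 ± 1.05) and Rgs14 (1.42 ± 0.744) overlapped.

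The 6 members together summed to 362, 339 and 341 CPM per kb in resting Cre-only cells and to 83.3, 83.0 and 79.4 at 3 h. Runx1 c-k/o sums were 224, 276 and 268 at rest and 84.0, 78.4 and 61.1 at 3 h. The resting sums of the genotypes did not overlap, whereas those at 3 h did. Rgs2 made up 60.4% ± 2.34 of the sum in resting Cre-only cells and 29.7% ± 0.369 at 3 h, while Rgs19 made up 10.1% ± 0.725 and 55.7% ± 0.723. For Runx1 c-k/o cells the share of Rgs2 went from 53.5% ± 1.66 to 26.0% ± 2.29 and that of Rgs19 from 14.3% ± 1.06 to 59.2% ± 5.79. These shares describe a sum over the 6 chosen genes and carry no test.

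**Figure D3:**
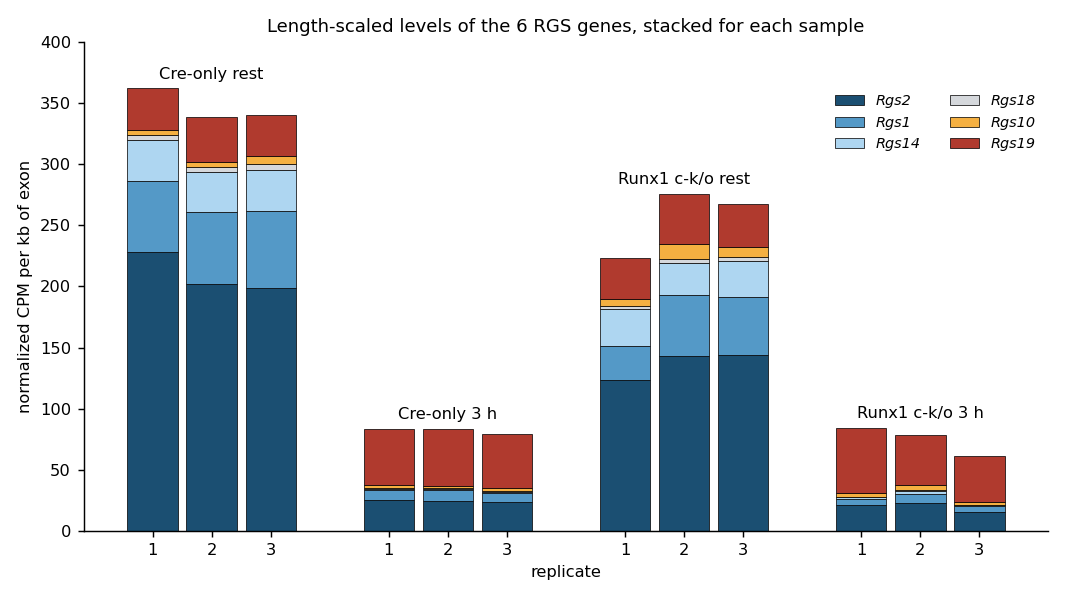
Normalized CPM per kb of exon of the 6 RGS genes, stacked for each of the 12 samples. Rgs2 is the largest part at rest and Rgs19 at 3 h, and the resting Runx1 c-k/o stacks (224 to 276) are shorter than the resting Cre-only stacks (339 to 362).

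The comparison of genotypes at rest asked which RGS transcripts depend on the genotype before activation. Rgs2 was lower in Runx1 c-k/o cells, with 446, 517 and 523 CPM against 828, 734 and 722 CPM. The groups did not overlap, and the level was 1.54-fold lower (log2 fold change -0.62, SE 0.133, adjusted p = 0.0434 in edgeR's quasi-likelihood test). This was the only called member of the 6, where 1.49% of all tested genes were called and 0.761% were lower. The call lay close to the threshold. It was kept in 6 of 9 alternatives other than single samples left out, with DESeq2 (adjusted p = 0.00160) and with an RUVs factor (0.0117 by edgeR, 2.68e-05 by DESeq2) among them. It was lost by a small margin with DESeq2's size factors, and also with the replicate block (0.0788), without both libraries that stood apart (0.0671) and without any 1 of the 6 samples (0.0738 to 0.203 in edgeR's test). The log2 fold change stayed between -0.66 and -0.55 throughout.

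In the 3 resting samples of each genotype, Rgs1, Rgs14 and Rgs18 also had all Runx1 c-k/o values below all Cre-only values, which made 4 of 6 members with Rgs2, and 0 of 6 lay wholly above. Among all tested genes 11.6% lay wholly below in this way and 12% above. Rgs1 had a log2 fold change of -0.52 (SE 0.195) and an adjusted p of 0.307 by edgeR, with replicate 1 of the Runx1 c-k/o cells (109 CPM) far below the other 2 (192 and 180 CPM). Without replicate 1 the log2 fold change of Rgs1 was -0.31, and without replicate 2, which stood apart, -0.67. The adjusted p of Rgs14 (log2 fold change -0.21, SE 0.192) was 0.706 and that of Rgs18 (-0.26, SE 0.206) 0.671 by edgeR. These differences were too small, given the spread, to pass a test over all genes. The same 4 members were below without overlap when DESeq2's size factors replaced TMM and when replicate 2 of the Runx1 c-k/o cells was left out, although 18.7% of all tested genes were below with that sample out.

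Rgs10 had the opposite sign at rest. Its Runx1 c-k/o samples (9.96, 20.5 and 13.9 CPM) overlapped the Cre-only ones (7.81, 8.03 and 11.3 CPM), with a log2 fold change of 0.71 (SE 0.276, adjusted p = 0.342 by edgeR). Without Runx1 c-k/o replicate 2, the sample with the highest myeloid sum, it was 0.40. Rgs19 differed by a log2 value of 0.07 (SE 0.120, adjusted p = 0.845 by edgeR), less than the spread between its samples.

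At 3 h, 0 of the 6 members were called by edgeR, with 1 under 0.05 before adjustment and 0 called by DESeq2, where 2.77% of all tested genes were called. Rgs2 had 74.9, 81.3 and 54.7 CPM in Runx1 c-k/o against 90.8, 88.5 and 85.2 CPM in Cre-only cells. It was the 1 member whose samples did not overlap, with all Runx1 c-k/o values lower, as was the case for 12.3% of all tested genes. Its log2 fold change was -0.33 (SE 0.135, adjusted p = 0.261 by edgeR). The other members ranged from -0.53 (Rgs18) to 0.52 (Rgs10), with overlapping samples. These values rested on single libraries, since leaving out 1 sample moved Rgs18 between -0.98 (without Runx1 c-k/o replicate 2) and -0.32 (without replicate 3), Rgs10 between 0.29 and 0.75 in the same fits, and Rgs14 from 0.44 to -0.06 (without replicate 2). Without replicate 1 of the Runx1 c-k/o, Rgs18 stood at -0.36 and Rgs10 at 0.52. Without 3-h replicate 1, which stood apart, Rgs19 also lay below in all remaining samples, and 19% of all tested genes did so.

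**Figure D4:**
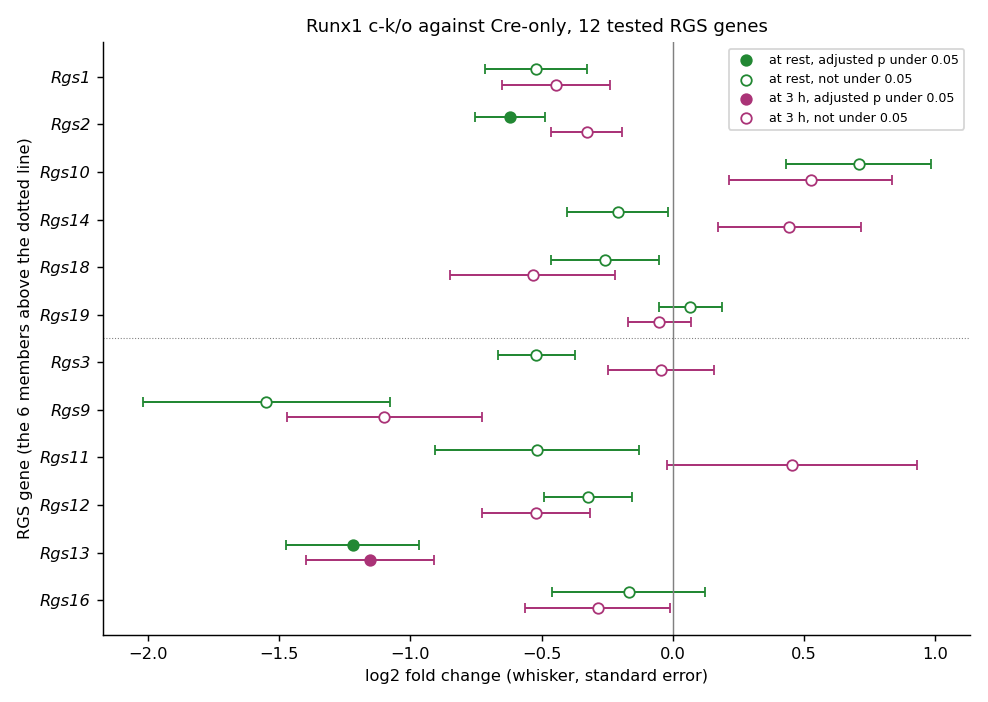
Log2 fold change between genotypes (Runx1 c-k/o relative to Cre-only) at rest (green) and at 3 h (purple) for the 12 tested RGS genes, with standard errors as whiskers and filled points for an adjusted p under 0.05 in edgeR's quasi-likelihood test. Filled points belong to Rgs2 at rest and to Rgs13 at both times. Below 0 are 10 of 12 values at rest and 9 of 12 at 3 h.

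The rest of the RGS family was read from the same fit. Of 15 other RGS genes, 6 were tested. The remaining 9 had at most 2 counts in any sample, and 4 of them, among them Rgs21 of the chromosome 1 cluster, had 0 counts in all 12 samples, which allows up to 3 counts in each. Rgs3 and Rgs12, which are larger proteins with further domains beside the RGS domain, fell on activation in both genotypes. Rgs3 went from 18.0, 19.1 and 20.2 CPM to 2.20, 1.96 and 2.48 CPM in Cre-only cells (log2 fold change -3.10, SE 0.172, adjusted p = 2.49e-08 by edgeR). Rgs12 fell from 6.70, 5.92 and 5.64 CPM to 2.68, 1.76 and 2.17 CPM (log2 fold change -1.45, SE 0.179). Rgs11 (log2 fold change -1.30) was lower and Rgs9 (0.92) higher at 3 h in Cre-only cells, at levels under 2.2 CPM in every sample. Both pair with the beta subunit Gnb5, and their calls held in 9 of 13 and 7 of 14 alternatives. Rgs13 and Rgs16 did not pass in this comparison.

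Rgs13, which lies between Rgs2 and Rgs1 and is known from germinal center B cells and mast cells, was lower in Runx1 c-k/o cells at both times. At rest it had 4.63, 5.13 and 5.89 CPM in Cre-only cells against 1.93, 3.10 and 1.66 CPM in the Runx1 c-k/o, from 25 to 96 counts. The groups were apart, and the level was 2.33-fold lower (log2 fold change -1.22, SE 0.254, adjusted p = 0.0374 by edgeR). At 3 h the values were 5.35, 6.66 and 7.01 against 3.80, 2.43 and 2.30 CPM, 2.22-fold lower (log2 fold change -1.15, SE 0.245, adjusted p = 0.0257 by edgeR). The replicate block gave adjusted p-values of 0.0815 and 0.0586 in edgeR's fit, the fit of only the groups compared gave 0.0786 at 3 h, and 5 of 6 fits with 1 sample left out lost the call at each time (adjusted p of 0.0158 to 0.158 at rest and 0.00552 to 0.101 at 3 h over all of them). Without both libraries that stood apart, Rgs13 passed at both times (adjusted p = 0.000298 and 0.000216 by edgeR), and at rest Rgs3 passed as well (log2 fold change -0.59, adjusted p = 0.0185), which in the fit of all samples had -0.52 and 0.145. These libraries had the highest Rgs13 of their groups (3.10 and 3.80 CPM), and the alternative was chosen after the data were examined. With it 598 genes were called at rest and 914 at 3 h, against 202 and 375 with all samples.

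Germinal center markers were set beside Rgs13. The 6 markers summed to 126 to 144 CPM in resting Cre-only samples against 104 to 121 CPM in the Runx1 c-k/o, without overlap. Of single tested genes 11.6% lay wholly below in this way. At 3 h the sums of 43.1 to 49.3 and 38.1 to 44.3 CPM overlapped. Most of the sum was Bcl6 (126 CPM in resting Cre-only cells). S1pr2 averaged 3.16 CPM in resting Cre-only cells and 1.33 CPM in the Runx1 c-k/o, and Gcet2 1.62 and 0.397 CPM. The resting sums of 8 B cell markers also did not overlap, and the Runx1 c-k/o was higher. They were 9872 to 10327 CPM in Runx1 c-k/o and 9360 to 9609 CPM in Cre-only samples. None of the 6 germinal center markers was called between genotypes by edgeR, and Mef2b was at 0 in all samples. The part of germinal center cells in the Rgs13 difference was not tested.

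Over the 12 tested RGS genes, 8 had all resting Runx1 c-k/o samples below all resting Cre-only samples (Rgs1, Rgs2, Rgs14, Rgs18, Rgs3, Rgs9, Rgs12 and Rgs13) and 0 had them above, where 11.6% of all tested genes were wholly below and 12% wholly above. Of the log2 fold changes 10 of 12 were below 0, with a median of -0.42, against 0.03 over all tested genes. The same 8 genes were below under DESeq2's size factors (11.4% of all tested genes) and without Runx1 c-k/o replicate 2 (18.7%). At 3 h 4 of 12 were wholly below (Rgs2, Rgs9, Rgs12 and Rgs13), as were 12.3% of all tested genes. Of the log2 fold changes at 3 h, 9 of 12 were below 0, with a median of -0.31, against 0.007 over all tested genes.

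The proteins that RGS proteins act on, and the receptors in front of them, were taken from gene lists. Of 9 tested alpha subunits, 4 fell and 3 rose in Cre-only cells on activation, which is near the shares of 36.4% lower and 38.6% higher among all tested genes. Gnai2, the main Gi subunit of lymphocytes, fell from 560.7 ± 16.3 to 183 ± 8.99 CPM (SD, n = 3; log2 fold change -1.61, SE 0.0998, adjusted p = 4.15e-08 by edgeR). Gna15, a Gq class subunit of blood cells, had a log2 fold change of -1.99 and Gnal, a Gs class subunit, of -2.63. Gnaq rose by 0.96 and was also called higher in resting Runx1 c-k/o cells, with 47.6, 48.5 and 52.0 against 38.7, 34.8 and 36.6 CPM (log2 fold change 0.43, SE 0.0953, adjusted p = 0.0493 by edgeR). That call was lost in 10 of 15 alternatives.

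Of 11 tested beta and gamma subunits, 5 fell and 3 rose in Cre-only cells, and 72.7% of them were called against 75% of all tested genes. Gng2 fell from 125, 122 and 125 CPM to 6.99, 7.97 and 9.68 CPM (log2 fold change -3.93, SE 0.233, adjusted p = 3.56e-08 by edgeR). Gng4 had 0, 2 and 2 counts at rest and 420, 347 and 279 counts at 3 h, while the resting Runx1 c-k/o samples held 4, 33 and 0 counts. Gng7 had 9, 5 and 15 counts at rest and 1, 0 and 1 at 3 h. None of the 11 was called between genotypes at rest or at 3 h by edgeR, with 1 under 0.05 before adjustment and 0 called by DESeq2 at each time.

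Among 22 tested receptors, 16 fell and 5 rose in Cre-only cells, where 36.4% of all tested genes fell and 38.6% rose. P2ry10, a lysophosphatidylserine receptor, fell from 693 ± 12.5 to 89.4 ± 15.9 CPM (log2 fold change -2.96, SE 0.151, adjusted p = 1.71e-08 by edgeR). Gpr34, another receptor of that class, went from 62, 51 and 49 counts to 3, 1 and 2. S1pr3, a sphingosine 1-phosphate receptor, rose from 22.7 ± 3.39 to 169 ± 13.1 CPM (log2 fold change 2.90, SE 0.195, adjusted p = 7.83e-08 by edgeR).

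Between genotypes, 13.6% of the tested receptors were called at rest and 9.09% at 3 h, against 1.49% and 2.77% of all tested genes. The receptors were listed with earlier results of these data known, so these shares carry no test. Ccr6, the receptor of the chemokine CCL20, was lower in Runx1 c-k/o cells. It had 27.6, 18.4 and 26.5 CPM against 66.7, 77.2 and 74.2 CPM at rest, with no overlap (log2 fold change -1.59, SE 0.197, adjusted p = 0.00157 by edgeR), and a log2 fold change of -2.03 at 3 h. Gpr171 was lower too, by log2 values of -0.93 at rest and -1.15 at 3 h. Cnr2, the cannabinoid receptor of immune cells, was higher at rest, with 340, 269 and 360 against 193, 196 and 186 CPM (log2 fold change 0.75, SE 0.123, adjusted p = 0.00919 by edgeR), and differed by -0.06 at 3 h. The call of Cnr2 at rest was lost in 3 of 6 edgeR fits with 1 sample left out (without Cre-only replicate 1 or 3 or Runx1 c-k/o replicate 3), with adjusted p-values up to 0.0574. The interaction for Cnr2 (log2 value -0.81, SE 0.175) had an adjusted p of 0.192 by edgeR, 0.0163 by DESeq2 and 0.00309 by edgeR without both libraries that stood apart.

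Of 28 tested genes of the pathway around the G proteins, 18 fell and 4 rose in Cre-only cells, and 78.6% of them were called against 75% of all tested genes (36.4% lower and 38.6% higher). Arrb1 (beta-arrestin) fell by 3.09 on the log2 scale, from 74.4 ± 1.60 to 8.70 ± 1.82 CPM. Adcy7, an adenylyl cyclase, fell by 3.01 and Arhgef1, an exchange factor with an RGS-like domain of its own, by 2.68. Pik3r6, a regulatory subunit of the phosphoinositide kinase that G protein beta and gamma subunits activate, was higher in resting Runx1 c-k/o cells at low levels, with 32, 23 and 30 counts against 8, 7 and 7 (log2 fold change 2.12, SE 0.335, adjusted p = 0.00753 by edgeR). Leaving out Cre-only replicate 1 or 2 took the adjusted p of Pik3r6 to 0.0539 and 0.0526 in edgeR's test. In the plot of gene lists the members stand beside these groups.

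**Figure D5:**
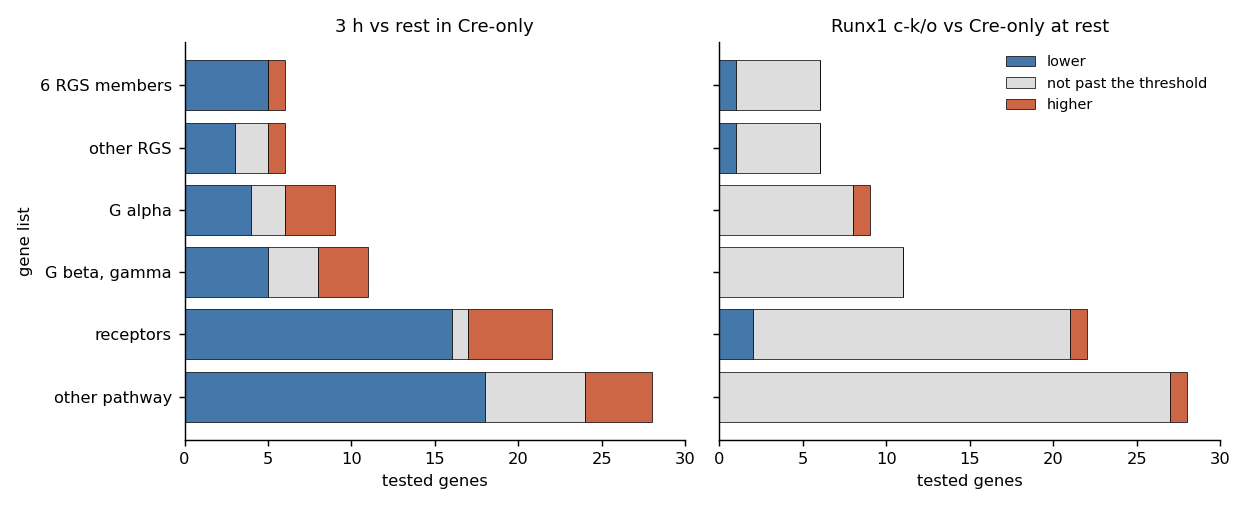
Number of tested genes in each list that were lower, higher or not past an adjusted p of 0.05 in edgeR's quasi-likelihood test, for Cre-only cells at 3 h against rest and for the genotypes at rest. On activation 5 of 6 members, 16 of 22 receptors and 18 of 28 pathway genes are lower, against 36.4% of all tested genes. Between genotypes at most 3 genes of any list are called. These are 16.7% of the members, 16.7% of the other RGS genes, 13.6% of the receptors and 11.1% of the alpha subunits. Of the pathway genes 3.57% are called and of the beta and gamma subunits 0%, against 1.49% of all tested genes. The lists were chosen with earlier results of these data known, and the shares carry no test.

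The genes whose values over the 12 samples ran closest to each member were found by the root mean square difference of centered log2 levels, among tested genes other than Gm, Rik and pseudogene names. For Rgs1 the nearest was Rgs2 (0.189), followed by Tlr8 and Ccdc69, and for Rgs2 the third nearest was Rgs1, after Ccdc69 (0.142) and Stk17b (0.174). Rgs18 was nearest to Tlr8 (0.159), Sbk1 and Lynx1, and ranked 9th for Rgs1. It ranked 62nd for Rgs2, while for Rgs18 itself Rgs1 ranked 100th and Rgs2 211th. Rgs14 ran closest to Siglecg (0.138), Cd1d1 and Maf. Rgs10 ran closest to Slc7a7 (0.209), Cd68 and Sirpa, the last pair known from macrophages. Rgs19 was closest to Actr10 (0.0670), Dad1 and Ctnnbl1. All samples share their libraries and normalization, and these distances are descriptions without a test.

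The labelled cell type was checked against its markers. The 8 B cell markers all passed the filter. At rest they summed to 9360 to 9609 CPM in Cre-only and 9872 to 10327 CPM in Runx1 c-k/o samples. At 3 h the sums were 4804 to 5562 CPM. Sums of the other lists over all samples were 422 to 754 CPM for 6 marginal zone B cell markers, 1541 to 2389 CPM for 5 plasma cell markers, 5.35 to 113 CPM for 10 T and NK cell markers and 14.9 to 476 CPM for 6 erythroid markers. Most of the plasma cell sum was Irf4, which averaged 1384 CPM in resting and 1777 CPM in 3-h Cre-only cells. In resting Cre-only cells Igj averaged 124.9, Xbp1 61.88, Sdc1 17.9 and Prdm1 16.45 CPM. The upper end of the T and NK cell range was Il7r, which averaged 1.74 CPM in resting and 98.6 CPM in 3-h Cre-only cells, while Cd4 averaged 2.84 and 0.216 CPM and Cd3e, Cd3d and Cd3g averaged at most 0.527 CPM in every group. Of the 8 lists of markers, 1 gene was called between genotypes by edgeR, a plasma cell marker (Sdc1) that was lower in resting Runx1 c-k/o cells. Tested markers numbered 8 for B cells, 6 for marginal zone, 5 for germinal center and 5 for plasma cells. They numbered 4 for T and NK cells, 7 for myeloid, 7 for megakaryocyte and platelet and 5 for erythroid cells. Of all tested genes 1.49% were called at rest and 2.77% at 3 h.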

How the data were processed

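The authors isolated poly(A) RNA from B cells purified from spleens by negative selection, made stranded paired-end libraries, aligned the reads to mouse mm9 with TopHat2 (version 2.0.11 in the submitters' processing notes, which also name CASAVA 1.8.4) and assigned them to Ensembl genes by featureCounts. They deposited raw read counts per gene, without normalization, for 12 samples in 4 groups of 3, and these samples held 14442251 to 23641552 counts. The strand setting of the counting is not given in the sources used here, and the table held 0 rows for the ERCC spike-in RNA that was added. The authors tested with DESeq2 and RUV factors, whose number is not given in the sources used here.

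From the counts, 37205 of 37991 identifiers were given symbols from an annotation of NCBIM37. Genes were kept with filterByExpr (minimum of 10 counts), normalized by TMM and fitted with edgeR 4.0.16 (robust quasi-likelihood test, 1 term for each group, all 12 samples) in R 4.3.3. Adjusted p-values are Benjamini-Hochberg values over 13538 genes, with 0.05 as threshold. Standard errors (SE) were derived from the test, as the absolute log2 fold change divided by the square root of its F statistic. Levels per kb divide normalized CPM by the union of exons. With 3 samples against 3, an exact permutation test of 1 gene cannot give a p under 0.1. Floors cover counting error only, since reads carry no molecular identifiers. Patterns were compared after adding 0.5 CPM. Alternatives were DESeq2 1.42.0, its size factors, other filters on low counts, 1 factor of unwanted variation (RUVs), replicate blocks, fits of the compared groups alone, single samples left out, and exon lengths of the longest transcript. The fits were tested on simulated data with the same spread in every library, so libraries that stood apart were not covered.

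The members and the lists (other RGS genes, G protein subunits, receptors, pathway genes, markers of 8 cell types) were chosen with earlier results of these data known. Genes named from the lists were every one past 0.05 between genotypes and the 3 with the largest log2 fold changes on activation in Cre-only cells among those past it, and for each member the 3 nearest in pattern. The most abundant marker genes were named as a check. Rgs9, Rgs16 and some further markers were named after their values were seen. Replicate numbers pair the Cre-only samples by their deviations (correlations 0.275, 0.176 and 0.144 for a shared number at rest and 3 h) but not the Runx1 c-k/o samples (-0.254, -0.264 and 0.254). Across numbers, Runx1 c-k/o resting replicate 2 and 3-h replicate 1, the libraries that stood apart, had a correlation of 0.477. Resting replicate 3 with 3-h replicate 2 had 0.309, and resting replicate 1 with 3-h replicate 3 had 0.268. The other pairs of unlike number had 0.0756, -0.371 and -0.428. Whether such samples came from the same mouse was not tested.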

Additional observations from a re-analysis of the deposited data

How the results depend on the processing

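Each of the 5 members that fell on activation passed in all alternatives in both genotypes. Rgs19 in Cre-only cells turned to -0.0504 (edgeR) and -0.1583 (DESeq2) on the log2 scale with 1 RUVs factor. Members called at rest numbered 0 in place of 1 with DESeq2's size factors, with the replicate block, with each sample left out (range 0 to 0) and without both libraries that stood apart, an alternative chosen after the data were examined. The replicate block, which changed no activation call of a member, removed both calls of Rgs13 and that of Gnaq at rest, and within genotype that of Rgs9 on activation. Between genotypes, the deviations of samples with a shared number had correlations of 0.0111, 0.027 and 0.068 at rest. At 3 h these were -0.0485, -0.0665 and 0.00989. Why calls were lost with the block was not tested.

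Numbers of all genes called moved more. At rest they were 202, and 378 with DESeq2, 524 and 611 with 1 RUVs factor by edgeR and by DESeq2, 598 without both libraries that stood apart and 81 to 140 with 1 sample left out. At 3 h they were 375, and 707, 1036, 1235, 914 and 180 to 617 in the same order, and 158 with only the groups compared. For the interaction they were 11, and 79, 142, 250, 187 and 4 to 31, and 4 with the replicate block within genotype. On activation, leaving out 1 sample gave 9628 to 9697 genes in Cre-only and 9472 to 10203 in Runx1 c-k/o cells, with 6 and 5 to 6 members. The cause of these shifts was not tested. With the longest transcript in place of the union of exons, the share of Rgs19 was 11.8% and 59.2% for Cre-only cells at rest and 3 h, and 16.6% for Runx1 c-k/o cells at rest. At low levels (Rgs18 at 3 h, 10 to 34 counts) depth limits the precision.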
